A study of Mus musculus with 6 samples.

Results

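The hair keratins, the keratins of the inner root sheath and 10 further genes of hair follicle differentiation were compared in mouse skin between 3 wild-type and 3 knock-in samples. Of 31 genes listed, 28 had a probe set with that gene as its only symbol in the platform annotation, among 18193 genes with such a probe set on the array. Each of the 28 had 1 probe set, so no choice between probe sets was needed. Krt85, Dsg4 and Crisp1 were not analysed here. The 28 genes comprise 8 genes of the inner root sheath (Krt25, Krt26, Krt27, Krt28, Krt71, Krt72, Krt73 and Tchh), 12 shaft keratins (Krt31, Krt32, Krt33a, Krt33b, Krt34, Krt35 and Krt36 of type I, and Krt81, Krt82, Krt83, Krt84 and Krt86 of type II), Krt75 of the companion layer, and Tchhl1, Padi1, Padi3, S100a3, Gprc5d, Prr9 and Crym.

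Both groups were skin on a C57BL/6 background, and total RNA was hybridised as biotin-labelled target, 1 array per sample. The labels give the knock-in the genotype code KA without naming the changed gene, and they state no sex, age, body site or hair cycle stage. Nothing in them says that the samples came from separate animals, so the p-values measure the spread between these 6 samples only. The deposited values are linear signal intensities made with the MAS5 algorithm, which scales each array by 1 factor.

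A hair is built from concentric layers that arise from dividing matrix cells at the base of a growing follicle. Cells in the centre make the shaft, whose cortex and cuticle fill with hair keratins embedded in keratin-associated proteins. Cells around them make the inner root sheath, which moulds the growing shaft, hardens through trichohyalin and is lost before the hair emerges. Keratin filaments form from pairs of an acidic type I and a basic type II chain, so each layer makes a set of both.

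The promoters of 2 sets of members are shown because the 250 bases before the start differed in their letters between sheath and shaft genes. In the RefSeq promoter table (build GRCm38.p6), 23 of the 31 listed genes had an entry, with 26 promoters in all. Both strands were searched for 4 kinds of motif: the TATA box, spelled TATAAA, the core of LEF1/TCF sites, spelled CTTTGA with CTTTGT as its other form, the core of sites for GATA factors, spelled AGATAA, and the AP-1 site, spelled TGANTCA. A further 7 letters, TTTTATG, were added after the sequences had been seen, and the genes shown were picked for their matches. Capitals mark every match below, written 5′ to 3′ on the coding strand and ending with the base before the start. 4 genes of the inner root sheath carried AGATAA:
Krt25, chr11:99322952-99323201, minus strand: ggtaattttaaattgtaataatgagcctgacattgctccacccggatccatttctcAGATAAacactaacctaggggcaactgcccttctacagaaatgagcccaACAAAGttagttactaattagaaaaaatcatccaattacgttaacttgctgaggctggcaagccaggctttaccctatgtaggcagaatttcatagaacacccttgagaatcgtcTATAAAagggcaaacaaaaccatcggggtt
Krt27, chr11:99351119-99351368, minus strand: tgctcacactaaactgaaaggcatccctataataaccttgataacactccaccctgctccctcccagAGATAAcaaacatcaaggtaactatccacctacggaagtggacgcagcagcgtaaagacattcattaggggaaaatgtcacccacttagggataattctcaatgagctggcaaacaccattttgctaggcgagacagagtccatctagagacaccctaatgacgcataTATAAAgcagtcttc
Krt71, chr15:101743098-101743347, minus strand: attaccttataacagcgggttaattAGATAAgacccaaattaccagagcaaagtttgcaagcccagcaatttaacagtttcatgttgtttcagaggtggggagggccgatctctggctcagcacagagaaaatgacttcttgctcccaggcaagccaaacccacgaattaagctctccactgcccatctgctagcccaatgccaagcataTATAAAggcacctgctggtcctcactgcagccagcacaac
Krt73, chr15:101802361-101802610, minus strand: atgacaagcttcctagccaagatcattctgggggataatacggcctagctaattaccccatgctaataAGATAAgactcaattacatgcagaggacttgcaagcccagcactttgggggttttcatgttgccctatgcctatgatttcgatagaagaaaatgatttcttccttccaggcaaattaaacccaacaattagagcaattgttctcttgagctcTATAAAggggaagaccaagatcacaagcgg
4 type I shaft keratins carried CTTTGA near the far end of the window and TTTTATG further in:
Krt31, chr11:100050552-100050801, minus strand: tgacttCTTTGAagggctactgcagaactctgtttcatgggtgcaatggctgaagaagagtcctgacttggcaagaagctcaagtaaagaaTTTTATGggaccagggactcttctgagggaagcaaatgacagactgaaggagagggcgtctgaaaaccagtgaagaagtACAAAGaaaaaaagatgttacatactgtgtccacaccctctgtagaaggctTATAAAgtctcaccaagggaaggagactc
Krt34, chr11:100041555-100041804, minus strand: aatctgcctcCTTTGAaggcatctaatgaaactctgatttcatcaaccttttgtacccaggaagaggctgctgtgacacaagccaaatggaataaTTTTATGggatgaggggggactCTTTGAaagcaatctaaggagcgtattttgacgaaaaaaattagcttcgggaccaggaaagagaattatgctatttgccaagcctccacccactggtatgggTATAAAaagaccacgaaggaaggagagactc
Krt32, chr11:100088270-100088519, minus strand: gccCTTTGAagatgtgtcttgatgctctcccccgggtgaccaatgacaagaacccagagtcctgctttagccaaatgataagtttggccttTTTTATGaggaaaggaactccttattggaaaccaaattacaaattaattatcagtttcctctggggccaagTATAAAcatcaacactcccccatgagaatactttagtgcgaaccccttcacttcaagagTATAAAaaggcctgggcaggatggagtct
Krt33b, chr11:100029869-100030118, minus strand: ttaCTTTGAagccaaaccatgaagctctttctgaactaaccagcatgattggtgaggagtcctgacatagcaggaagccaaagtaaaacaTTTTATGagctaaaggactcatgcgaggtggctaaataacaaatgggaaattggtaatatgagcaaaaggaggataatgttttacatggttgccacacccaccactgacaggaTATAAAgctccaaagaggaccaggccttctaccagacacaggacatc

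AGATAA was found in 5 of 8 promoters of the inner root sheath (those 4 and Tchh) and in 0 of 7 shaft keratin promoters, against 9.99% of all 32851 promoters in the table. Its first base lay 194, 183, 225 and 182 bases before the start in Krt25, Krt27, Krt71 and Krt73. The LEF1/TCF core was found in 4 of 7 shaft keratin promoters and 3 of 8 of the inner root sheath, against 27.6% of all promoters. In Krt31, Krt34, Krt32 and Krt33b a CTTTGA on the coding strand began 244, 240, 247 and 247 bases before the start. In the same 4 genes TTTTATG began 159, 155, 159 and 160 bases before the start, so the spacing between both matches was nearly fixed. TTTTATG was found in 6 of 7 shaft keratin promoters, in 0 of 8 of the inner root sheath and in 3.77% of all promoters. Its position was not shared by all 6. It began 198 bases before the start in Krt82, and in Krt84 at 66 bases and, on the other strand, at 34. Krt75 of the companion layer also held TTTTATG, on the other strand 33 bases before the start. The shaft keratins Krt33a, Krt35, Krt81, Krt83 and Krt86 had no promoter entry. A TATAAA on the coding strand beginning 40 to 20 bases before the start was present in 5 of 8 sheath promoters, 3 of 7 shaft promoters and 1.99% of all. The AP-1 letters were found in 0 of these 15 sheath and shaft promoters, against 6.75% of all. The matches describe these windows, were not tested, and are no evidence of binding. Genes of one keratin family are related in sequence.

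All 28 measured members had lower signals in knock-in skin and passed the threshold (limma, Benjamini-Hochberg adjusted p from 4.38e-04 to 0.0424 over all 11670 genes tested), where 16.3% of all genes tested passed in that direction. In none of the 28 did the groups overlap, while 25.1% of all genes tested had every knock-in value below every wild-type value. The median log2 difference, knock-in minus wild-type, was -1.75 over the 28 members and -0.02 over all genes tested. Knock-in means lay between 13.3% and 60.6% of the wild-type means. A fall of at least 2-fold was reached by 24 members, against 3.98% of all genes tested, and one of at least 4-fold by 7, against 0.548%. Differences are given on the log2(signal + 16) scale with their standard errors, and signals as mean ± SD (n = 3 per group). Without wild-type replicate 3 the fit called 1121 of all genes lower in place of 1907, and 27 of the 28 members. In whole skin, fewer cells of a type and less RNA per cell cannot be told apart.

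**Figure D1:**
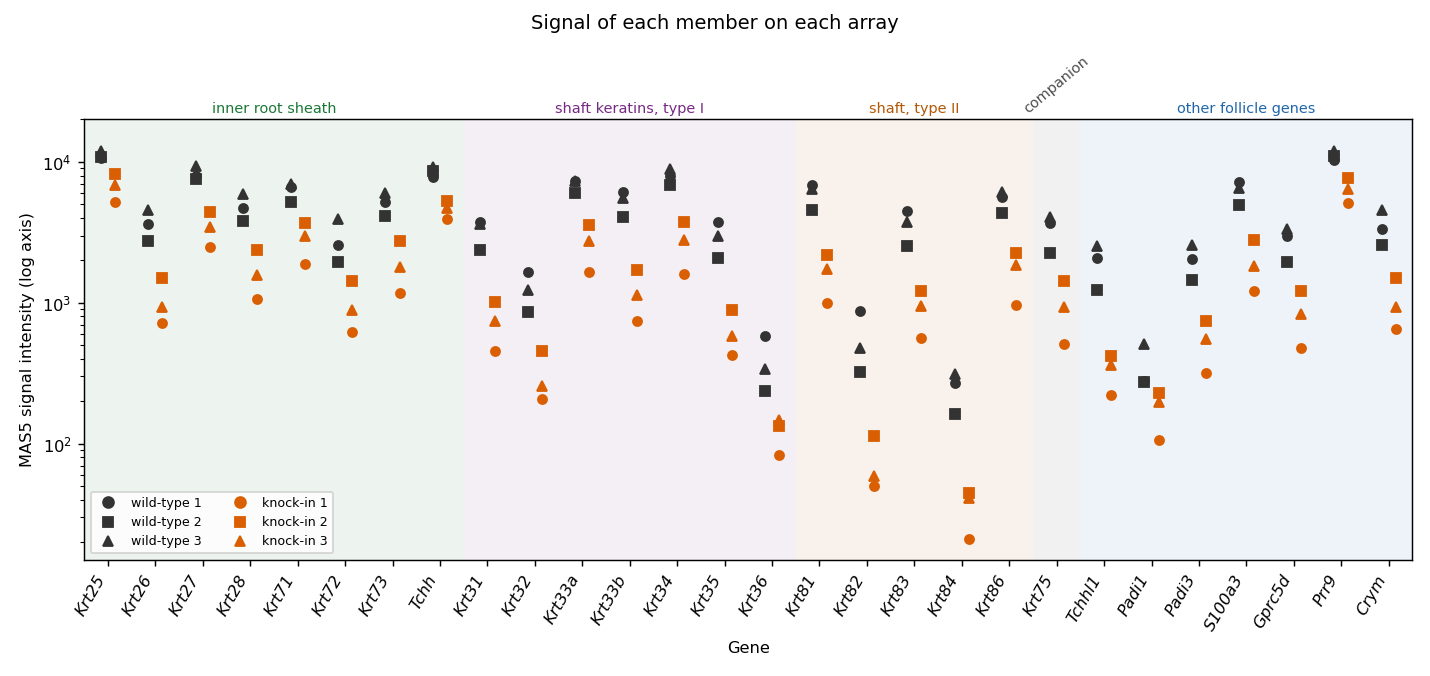
MAS5 signal of each member on a log axis for the 3 wild-type (dark) and 3 knock-in arrays (orange), with 1 symbol shape per replicate number and genes grouped by role. In all 28 genes the knock-in symbols lie below the wild-type symbols, and knock-in replicate 1 is the lowest symbol of every gene.

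Before the genes are taken in turn, 3 features of the arrays bear on all of them. Pearson's r between arrays, taken across genes, lay between 0.975 and 0.983 within wild-type, between 0.979 and 0.985 within knock-in and between 0.880 and 0.917 across the groups. The ratio of the 3′ to the 5′ actin probe set, a sign of RNA integrity, was 1.24 ± 0.0358 for wild-type and 1.23 ± 0.0385 for knock-in arrays, while the 5′ probe set for 18S ribosomal RNA gave 1848 ± 493 and 481 ± 301. The transcript Xist, made from the inactive X chromosome, gave 29.7 ± 2.44 in wild-type and 3729.7 ± 282 in knock-in, and 3 Y-linked genes were lower in knock-in (Eif2s3y at 687 ± 42.6 and 5.04 ± 0.544), so a difference of sex and one of genotype cannot be told apart for any gene here. The skin label was borne out by keratinocyte and dermal markers, with Krt14 at 6249.8 ± 318 and 10382 ± 1237 and Col1a2 at 11004 ± 860.0 and 10001 ± 1117 in wild-type and knock-in.

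Genes of the inner root sheath fell in all 8 cases, with a median log2 difference of -1.39 and a range from -1.82 to -0.74. Krt25, Krt26, Krt27 and Krt28 are its type I keratins. Mutations of Krt25 wave the coat of the mouse. The signal of Krt25 (probe set 1418173_at) was 10577, 10787 and 11922 on the wild-type arrays and 5174, 8197 and 6813 on the knock-in arrays. Krt26 (1436160_at) gave 3613, 2752 and 4559 on the wild-type arrays and 722, 1489 and 926 on the knock-in arrays. Every knock-in value of both genes lay below every wild-type value. The lowest wild-type value was 1.29 times the highest knock-in value in Krt25 and 1.85 times in Krt26. Their log2 differences were -0.74 ± 0.16 (limma adjusted p = 0.00846) and -1.82 ± 0.26 (limma adjusted p = 0.00142). The signal of Krt27 (1449378_at) was 7955, 7619.8 and 9334 on the wild-type arrays and 2496, 4383 and 3425 on the knock-in arrays. Krt28 (1430132_at) gave 4694, 3836 and 5892 on the wild-type arrays and 1062, 2353 and 1564 on the knock-in arrays. Both were lowest in knock-in replicate 1 and highest in wild-type replicate 3, and their differences were -1.30 ± 0.19 and -1.58 ± 0.27 (limma adjusted p = 0.00144 and 0.00291).

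The type II partners Krt71, Krt72 and Krt73 fell by similar amounts to the type I sheath keratins, with a median of -1.48 against -1.44. Krt71 (1448457_at), a keratin of all sheath layers in which mutations give curly hair in several species, had signals of 6671, 5165 and 7011 on the wild-type arrays and 1897, 3706 and 2956 on the knock-in arrays. Krt73 (1436557_at), a keratin of the sheath cuticle, had 5211, 4111 and 6015 on the wild-type arrays and 1181, 2744 and 1782 on the knock-in arrays. Knock-in replicate 2 stood highest and replicate 1 lowest of the knock-in arrays in both, and neither gene's groups overlapped. The differences were -1.17 ± 0.23 for Krt71 and -1.48 ± 0.27 for Krt73 (limma adjusted p = 0.00546 and 0.00433). Krt72 (1419840_at), also of the cuticle, went from 2825 ± 1027 to 978 ± 415, a difference of -1.54 ± 0.32 (limma adjusted p = 0.00757). Trichohyalin, encoded by Tchh (1434425_at), is cross-linked into the hardened sheath and into the medulla of the shaft. Its signal was 7804, 8600.3 and 9228 on the wild-type arrays and 3924, 5249 and 4742 on the knock-in arrays. The spread within each group was small, and the difference was -0.89 ± 0.12 (limma adjusted p = 0.00128), with the knock-in mean at 54.3% of the wild-type mean.

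Shaft keratins fell in all 12 cases, with a median of -2.00 and a range from -2.62 to -1.44. Among type I chains the median was -2.00 over 7 genes and among type II chains -1.99 over 5. Of the keratins of the cortex and cuticle, Krt34 (1418742_at) had signals of 7970.4, 6901 and 8845 on the wild-type arrays and 1612, 3756 and 2797 on the knock-in arrays. Krt33a (1449387_at) had 7378, 6059.7 and 7349 on the wild-type arrays and 1656, 3541 and 2754 on the knock-in arrays. Krt33b (1427179_at) had 6158, 4071 and 5552 on the wild-type arrays and 748, 1706 and 1144 on the knock-in arrays. Krt33b lost the most of these, with a knock-in mean at 22.8% of wild-type against 34.4% for Krt34 and 38.3% for Krt33a. The differences were -1.61 ± 0.26, -1.44 ± 0.24 and -2.17 ± 0.27 (limma adjusted p = 0.00257, 0.00276 and 7.30e-04). Krt33a and Krt33b are close copies of each other, so signal of one may reach the probe set of the other.

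Of the other type I chains, Krt31 (1421589_at) went from 3248 ± 779 to 738 ± 277 and Krt35 (1420409_at), an early keratin of the shaft just above the matrix, from 2931 ± 835 to 632 ± 236. Their differences were -2.15 ± 0.28 and -2.21 ± 0.28 (limma adjusted p = 8.41e-04 and 7.19e-04). Krt32 (1420728_at), a keratin of the shaft cuticle, went from 1251 ± 401 to 305 ± 129, a difference of -2.00 ± 0.30 (limma adjusted p = 0.00162). Krt36 (1427751_a_at) varied most among wild-type arrays of the type I chains, from 238 to 582, and lay between 82.98 and 148 in knock-in. It is one of 4 shaft keratins whose difference lay within the range of the sheath genes (-1.49 ± 0.30, limma adjusted p = 0.00697), the others being Krt33a, Krt34 and Krt86.

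Among the type II chains, Krt81 (1427290_at), a keratin of the cortex, had signals of 6846, 4569 and 6469 on the wild-type arrays and 1004, 2177 and 1733 on the knock-in arrays. Krt86 (1427365_at), a keratin in which mutations cause the fragile hair of monilethrix in humans, had 5661, 4341 and 6085 on the wild-type arrays and 959.9, 2269 and 1863 on the knock-in arrays. Both fell to about the same share of wild-type, at 27.5% and 31.7%, with differences of -1.90 ± 0.27 and -1.72 ± 0.28 (limma adjusted p = 0.00126 and 0.00257). Krt83 (1427118_at) went from 3591 ± 996 to 908 ± 329, a difference of -1.99 ± 0.29 (limma adjusted p = 0.00143). Krt81, Krt83 and Krt86 are neighbouring and very similar genes, so these values may not be independent readings. Krt82 and Krt84 were singled out after their values were seen, for the lowest knock-in means relative to wild-type of the 28 members, at 13.3% and 14.4%. Krt82 (1427719_s_at), a keratin of the shaft cuticle, had signals of 871, 321 and 479.8 on the wild-type arrays and 49.9, 114 and 59.1 on the knock-in arrays. Krt84 (1451551_at), which is known from the tongue as well as from hair, had 271, 161 and 314 on the wild-type arrays and 21.2, 44.7 and 41.3 on the knock-in arrays. Wild-type replicate 1 stood well above the other wild-type arrays for Krt82, and still no group overlapped. The differences were -2.62 ± 0.36 and -2.34 ± 0.26 (limma adjusted p = 0.0011 and 4.38e-04). The knock-in signals of Krt84 were near the offset of 16, which understates its fall, and 1 of its knock-in values lay below that array's median. Krt82 is read by a probe set that can read several transcripts.

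**Figure D2:**
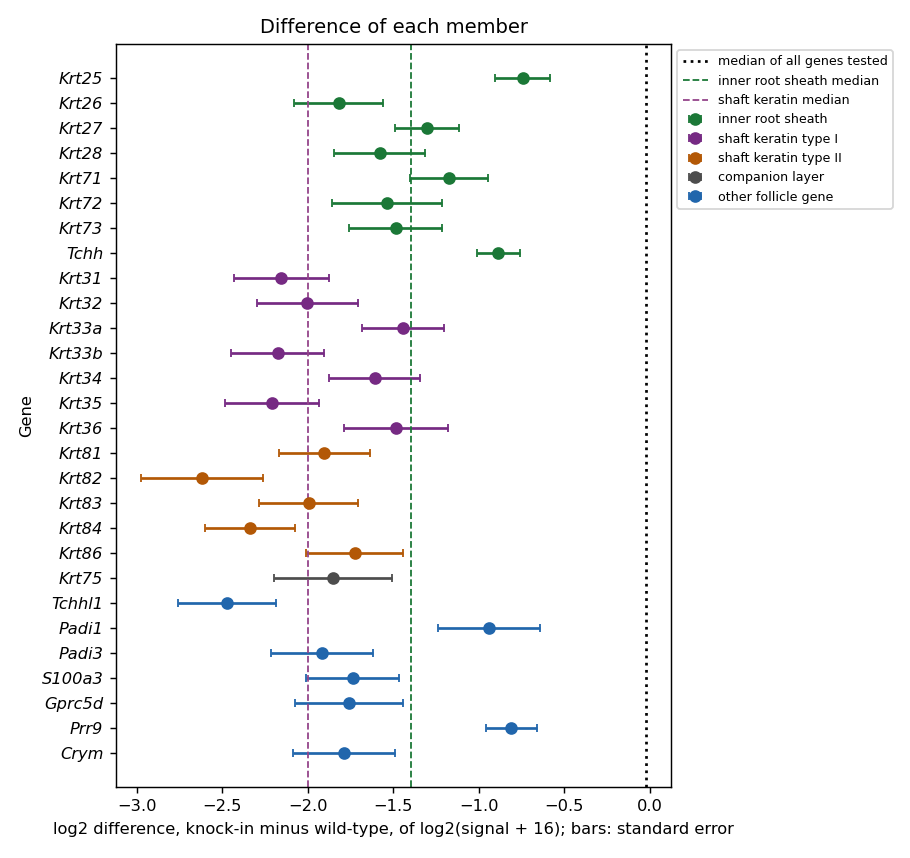
Log2 difference between knock-in and wild-type arrays (offset of 16) of each member with its standard error, coloured by role, with dashed lines at the medians of the inner root sheath genes (-1.39) and shaft keratins (-2.00) and a dotted line at the median of all genes tested (-0.02). All points lie left of the dotted line, and the sheath genes lie mostly to the right of the shaft keratins.

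The shaft keratins had larger differences than the inner root sheath genes. The median of the sheath genes was higher by 0.60 on the log2 scale, 8 of 12 shaft keratins had a lower difference than every sheath gene, 0 of 8 sheath genes lay below the shaft median, and 0 of 12 shaft keratins lay above the sheath median. By array, the median sheath level minus the median shaft level, each relative to its wild-type mean, was -0.28, 0.16 and 0.11 in wild-type and 0.67, 0.58 and 0.58 in knock-in, with no overlap. Without wild-type replicate 1 the gap between the medians was 0.41, and without another array it lay between 0.59 and 0.74. No test was made of this gap, because the genes of each set were chosen with results known and vary together. The size of a member's difference also moved with its signal. The wild-type means of Krt25 and Prr9, at 11095 and 11115, were close to the highest signal on any wild-type array, which was between 11701 and 13850.0 per array, and their differences were the smallest of the 28. Over the 28 members Spearman's rho between wild-type mean signal and log2 difference was 0.59, and over the 26 without these genes 0.49, as a description of genes read on the same arrays. Among members with a wild-type mean between 1000 and 6000, a restriction chosen after the data were seen, the medians were -1.56 over 4 sheath genes and -2.00 over 7 shaft keratins, a gap of 0.44. The part of signal strength in the gap was not tested beyond this.

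**Figure D3:**
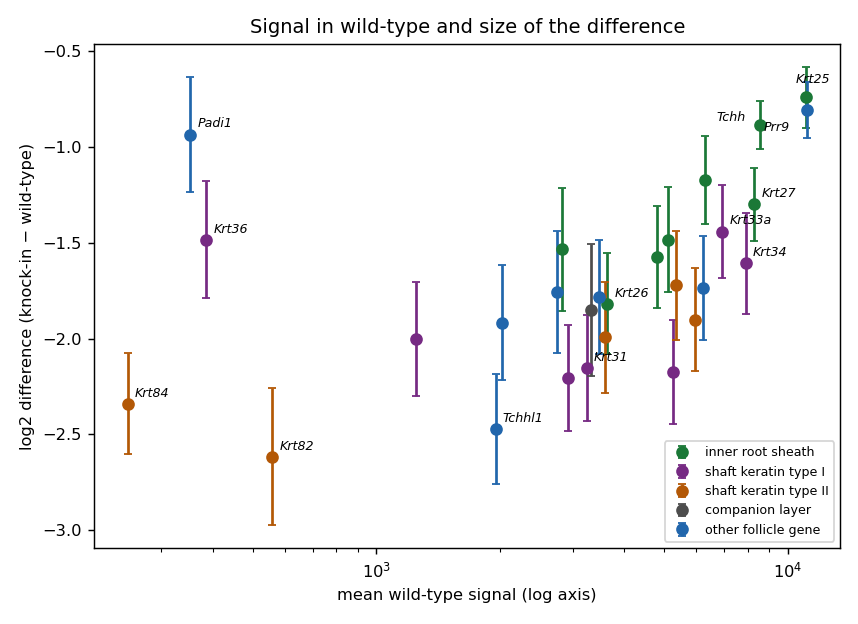
Log2 difference with its standard error against the mean wild-type signal on a log axis, coloured by role, with selected genes named. Krt25 and Prr9, at the highest signals, have the smallest differences (-0.74 and -0.81), and at signals between 1000 and 6000 most sheath genes lie above most shaft keratins.

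Krt75, a keratin of the companion layer that lies between the inner and outer root sheath, had signals of 3699, 2243 and 4033 on the wild-type arrays and 513, 1418 and 935 on the knock-in arrays (1427378_at). Its groups did not overlap and its difference was -1.85 ± 0.35 (limma adjusted p = 0.00462).

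The remaining follicle genes also fell in 7 of 7 cases, with a median of -1.76. Tchhl1 (1429944_at), a trichohyalin-like protein of the S100 fused family, had signals of 2064, 1240.4 and 2548 on the wild-type arrays and 221, 419 and 364 on the knock-in arrays. Its knock-in values lay far below the wild-type values, with a difference of -2.47 ± 0.29 (limma adjusted p = 5.15e-04). S100a3 (1421856_at), a cysteine-rich calcium-binding protein of the hair cuticle, had 7211, 4914 and 6576 on the wild-type arrays and 1208, 2792 and 1829 on the knock-in arrays. Padi3 (1419767_at), the peptidylarginine deiminase that converts arginine to citrulline in trichohyalin and S100a3, had 2037, 1449 and 2562 on the wild-type arrays and 317, 742 and 555 on the knock-in arrays. The differences were -1.92 ± 0.30 for Padi3 and -1.74 ± 0.27 for S100a3 (limma adjusted p = 0.002 and 0.00211), beside -0.89 ± 0.12 for the other substrate, Tchh. The knock-in means were 26.7%, 31.2% and 54.3% of wild-type. Padi1 (1419323_at), a deiminase that the epidermis also makes, had 278, 274 and 507 on the wild-type arrays and 106, 229.8 and 196 on the knock-in arrays. Its adjusted p was the highest of the 28, with a difference of -0.94 ± 0.30 (limma adjusted p = 0.0424), although Krt25, Prr9 and Tchh had smaller differences. The call of Padi1 was lost when wild-type replicate 3 was left out (limma adjusted p = 0.143), when knock-in replicate 1 (0.109) or 3 (0.0786) was, with no filter on dim probe sets (0.0673) or with eBayes without a trend (0.0529), in a range of adjusted p from 0.0187 to 0.143 over 17 alternatives. Under those 5 settings 27 of the 28 members passed.

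Gprc5d (1420538_at), an orphan G protein-coupled receptor of the hair follicle, had signals of 2981, 1949.9 and 3336 on the wild-type arrays and 474, 1213 and 829 on the knock-in arrays. Crym (1416776_at), which encodes the thyroid hormone-binding protein mu-crystallin, had 3342, 2552 and 4542 on the wild-type arrays and 646, 1507 and 936 on the knock-in arrays. Both fell to about the same share of wild-type, at 30.4% and 29.6%, with differences of -1.76 ± 0.32 and -1.78 ± 0.30 (limma adjusted p = 0.00397 and 0.00276). Prr9 (1444061_at), a small proline-rich protein gene of the epidermal differentiation complex, had 10388, 10985 and 11971 on the wild-type arrays and 5127, 7704 and 6423 on the knock-in arrays. Its knock-in mean stayed at 57.7% of wild-type, with a difference of -0.81 ± 0.15 (limma adjusted p = 0.00415).

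The order of the knock-in arrays was nearly the same for all 28 genes, and that of the wild-type arrays was not. Knock-in replicate 1 was the lowest knock-in array for 28 of 28 members and knock-in replicate 2 the highest for 27, Krt36 being the exception. Their median log2 level relative to wild-type was -2.35, -1.17 and -1.71 in knock-in replicates 1, 2 and 3. Wild-type replicate 2 was the lowest wild-type array for 25 of 28, while replicate 3 was the highest for 18 and replicate 1 for 10. On wild-type replicates 1, 2 and 3 the median level was -0.034, -0.28 and 0.21 for the sheath genes and 0.25, -0.44 and 0.10 for the shaft keratins. The sheath median thus peaked on replicate 3 and the shaft median on replicate 1, although the shaft keratins Krt34, Krt84 and Krt86 were highest on replicate 3. Across replicates the coefficient of variation of a member's signal was 24.4% (median over members) for the wild-type arrays and 37.8% for the knock-in arrays. Since members varied together between the knock-in samples, 28 calls are not 28 separate observations. With each array left out in turn, the median sheath difference lay between -1.64 and -1.14 and the median shaft difference between -2.27 and -1.73.

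**Figure D4:**
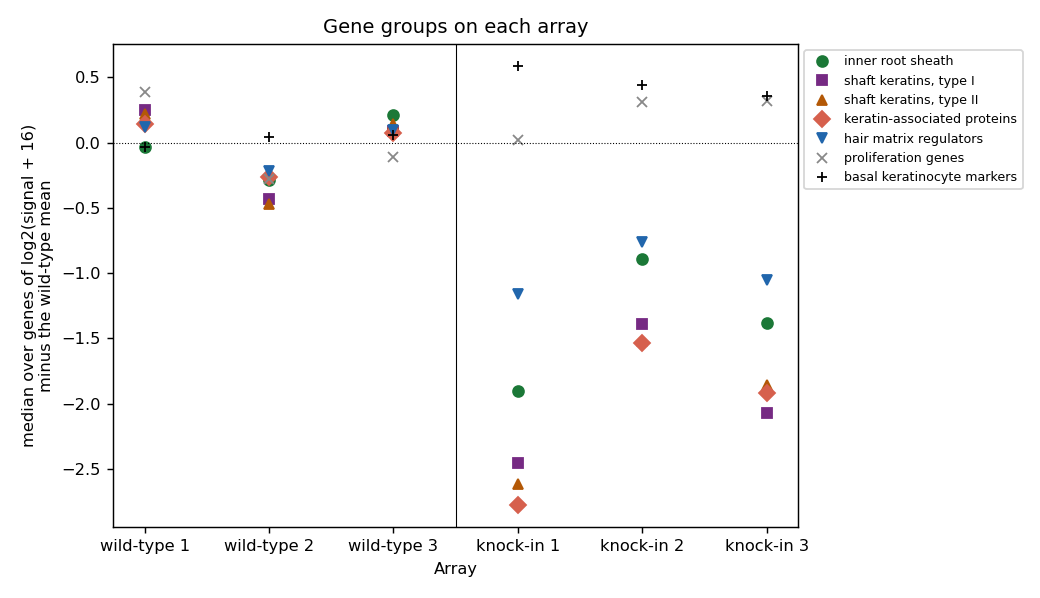
Median over the genes of each group of the log2(signal + 16) level minus the gene's wild-type mean, by array. The hair groups are lowest on knock-in replicate 1, down to -2.77 for keratin-associated proteins, and highest among knock-in arrays on replicate 2, while proliferation genes and basal keratinocyte markers lie at or above 0 on the knock-in arrays.

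Genes that act with the hair keratins fell as well, counted against the 16.3% of all genes tested that passed as lower. Keratin-associated proteins, the matrix in which the shaft filaments lie, were lower in 37 of 37 genes tested, with a median of -2.11 and a range from -3.49 to -0.51. Those with the smallest p were Krtap19-1 (-3.49), Krtap5-4 (-2.94) and Krtap6-3 (-3.27). The families are near-identical in sequence, so 1 probe set may read several of them. Of the 64 genes with a fall of at least 4-fold, 7 were members and 21 keratin-associated proteins; among the 465 with at least 2-fold they numbered 24 and 35. Regulators of the hair matrix, a list of transcription factors and signals, were lower in 18 of 23 tested and higher in 0, with a median of -0.96. Gata3, a transcription factor needed for the inner root sheath, went from 756 ± 89.0 to 357 ± 20.7 (-1.04 ± 0.11), Bmp4, a signal of the dermal papilla and matrix, had a difference of -1.31 ± 0.19, and Bambi, a BMP pseudoreceptor, one of -1.60 ± 0.24. Lef1, which binds the letters searched in the promoters, and Hoxc13, a homeobox factor of the hair shaft, named after their values were seen, went from 218 ± 22.1 to 76.6 ± 27.2 (-1.37 ± 0.21) and from 563 ± 158 to 155 ± 65.3 (-1.78 ± 0.28). On the knock-in arrays the regulators kept the order of the members, at -1.16, -0.76 and -1.05.

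The listed genes of cell division did not fall with the members between the groups. The arrays read whole skin, so division in the hair matrix cannot be told apart from division in other cells. Of 14 proliferation genes tested, 0 were lower and 3 higher (Birc5, Rrm2 and Cdk1, at 0.79, 0.78 and 0.75), with a median of 0.20. Among all genes tested, 16.3% passed as lower and 14.8% as higher. The division marker Mki67, also named after its values were seen, had a difference of -0.11 ± 0.21 and overlapped between groups. The median level of the proliferation list was 0.39, -0.28 and -0.11 on wild-type replicates 1, 2 and 3, the order of the shaft keratin medians. On knock-in replicates 1, 2 and 3 it was 0.018, 0.31 and 0.32, lowest on replicate 1 as for the members. Of 20 genes of protein cross-linking and desmosomes, 10 were lower and 1 higher, with a median of -0.44. Dsg1a, a desmosomal cadherin, had a difference of -1.06 ± 0.09 and Dsc1 of -0.58 ± 0.10, while Rptn, a cornified envelope precursor, rose by 0.85 ± 0.11. On the knock-in arrays the median of this list was lowest in replicate 3 (-0.70) and highest in replicate 1 (-0.27), unlike the members. Within the list, Dsg2 and Pkp2 had the order of most members.

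The keratin genes lie in 2 gene clusters, type I on chromosome 11 and type II on chromosome 15, which hold members beside keratins of other epithelia. On chromosome 11 the 11 members tested were all lower, and the 8 other keratins tested were divided into 3 lower, 2 higher and 3 that did not pass. The shares over all genes tested were 16.3% lower and 14.8% higher. Krt16, a keratin of wounded epidermis, rose from 409 ± 78.9 to 5371 ± 1481 (3.64 ± 0.21), and the basal keratin Krt14 by 0.73 ± 0.11. Krt23, Krt15, a keratin of the follicle bulge and basal layer, and Krt17, a keratin of the outer root sheath, fell by 1.52, 1.17 and 0.49. On chromosome 15 the 9 members tested were lower, against 1 lower, 3 higher and 6 not passing among 10 other keratins. Krt6b and Krt6a, which lie between Krt75 and Krt5 and are stress keratins of the outer root sheath and wounded epidermis, rose by 4.66 ± 0.52 and 1.18 ± 0.13, and their near-identical sequences make the split between them uncertain. Krt5, the basal partner of Krt14 and neighbour of Krt71, rose by 0.52 ± 0.09. Krt80 was the keratin outside the member list on chromosome 15 that fell (-1.08 ± 0.13). Of 12 keratins listed for the outer root sheath and epidermis and tested, 3 were lower, 5 higher and 4 did not pass, or 4 lower with quantile normalization. The members of each cluster moved in 1 direction, and the other keratins of each cluster in both. On chromosome 11 the keratins that rose, Krt14 and Krt16, lie apart from the members.

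**Figure D5:**
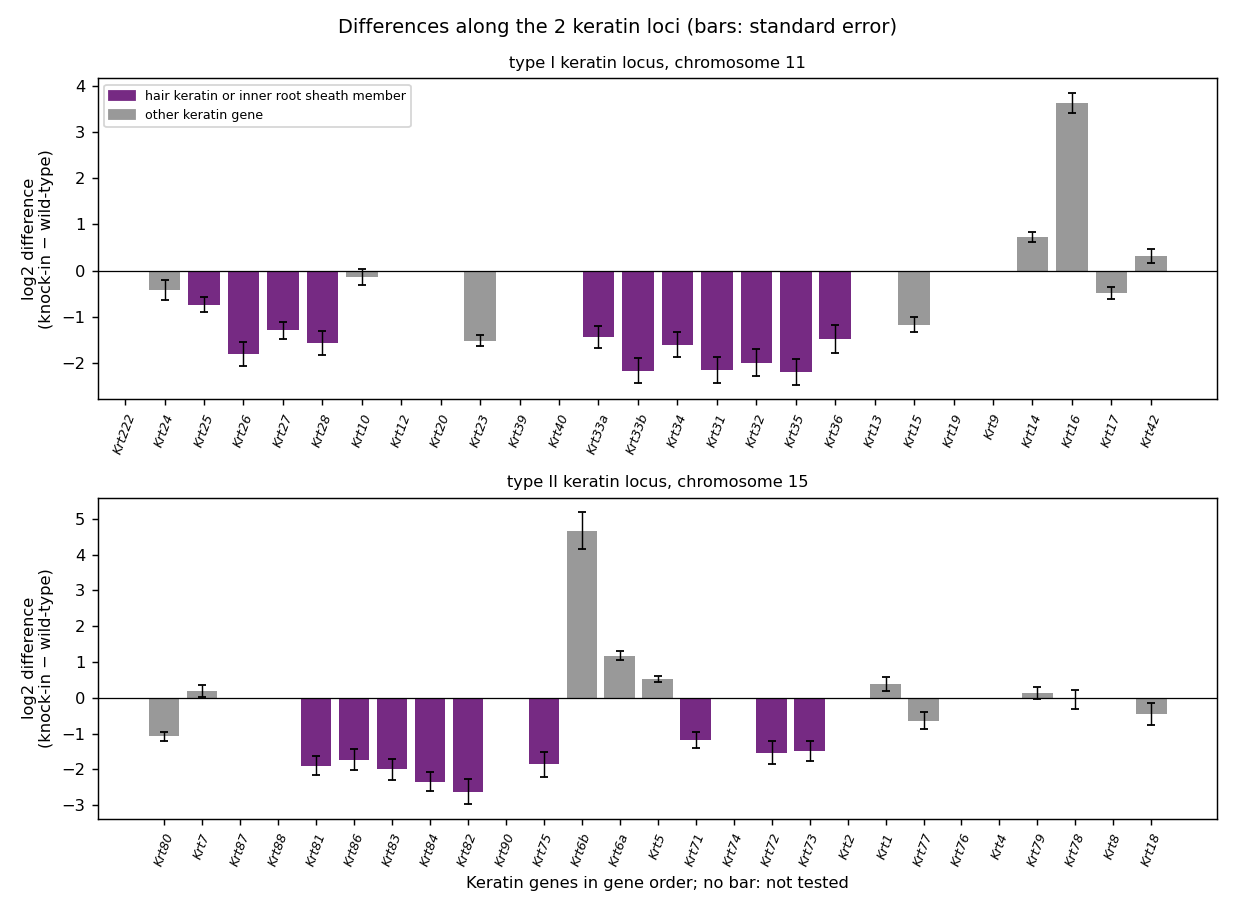
Log2 difference with its standard error of each keratin gene in gene order along the type I cluster (chromosome 11) and the type II cluster (chromosome 15); purple bars are members and grey bars other keratins, and genes without a bar were not tested. All purple bars point down, and grey bars point both ways. Krt6b (4.66), next to Krt75, and Krt16 (3.64), apart from the members of its cluster, point up.

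Markers of other cells of the skin were counted against the 16.3% lower and 14.8% higher of all genes tested. Of 6 neutrophil markers 6 were higher in knock-in. Cxcr2, Mmp8 and Csf3r lay below the array median on every wild-type array. They passed the filter only through the knock-in arrays, so a lower call was not possible for them. Summed signals lay between 602 and 833 on the wild-type arrays and between 14944 and 18879 on the knock-in arrays. Most of the knock-in sums came from S100a8 (9373.5 ± 1091) and S100a9 (6055 ± 814). Cxcr2, a defining receptor named after its values were seen, was near 0 in wild-type at 2.85 ± 1.17, against 76.2 ± 35.5 in knock-in. Of 6 macrophage markers 3 were higher (Cd14, Msr1 and Mrc1) and 0 lower (sums of 3158 to 4766 and 6009 to 10129.8). Most of the rise of these sums came from Cd14, at 139 ± 32.9 and 2873.5 ± 832, while Cd68, Adgre1 and Csf1r overlapped between the groups and did not pass. Of 6 endothelial markers 5 were higher and 0 lower (453 to 683 and 1311 to 1548). Basal keratinocyte markers were higher in 3 of 6 and lower in 0 (sums of 15775 to 16446 and 21945 to 26079.5), and suprabasal markers were lower in 1 of 6 and higher in 0 (31176 to 37574 and 26793 to 38307). Melanocyte markers, whose pigment cells sit in the hair bulb, were lower in 5 of 6 (2022 to 4416 and 854 to 1506), and skeletal muscle markers in 4 of 6 (31707 to 47294 and 19031 to 32092). Dermal fibroblast markers were 1 higher and 1 lower of 6, or 2 lower with quantile normalization (34890 to 44899 and 36762 to 42032), sebaceous gland markers 2 higher and 0 lower of 5 (14365 to 17338 and 19714 to 22535), and adipocyte markers 1 higher and 0 lower of 5 (8258 to 11989 and 11259 to 13180). On the knock-in arrays the melanocyte markers had the order of the members, with medians relative to wild-type of -1.78, -0.85 and -1.50 in replicates 1, 2 and 3. The part of these shifts in the lower signal of the hair genes was not tested. The median level of the neutrophil markers relative to wild-type was 3.24, 3.34 and 3.52 in knock-in replicates 1, 2 and 3. Singly, S100a8, S100a9, Mmp8, Csf3r and Cxcr2 were lowest in knock-in replicate 2, and Mmp9 was highest there. All members but Krt36 were highest in that replicate. A relation between neutrophil markers and members was not tested.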

How the data were processed

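Skin RNA of each genotype (3 samples apiece, 1 array each) gave 6 columns of signal intensity that the authors made with MAS5, per the submitters' processing notes. Its version is not given in the sources used here. The deposited intensities are linear, with a trimmed mean of 150 on every array after leaving out 2% at each end. Probe sets with 1 symbol in the platform annotation were kept, with the highest mean signal standing for each of 18193 genes. A gene was tested where its signal exceeded the median of at least 3 arrays (11670 genes; 6523 were left out). The test was limma (version 3.58.1, R version 4.3.3; lmFit and eBayes with trend) on log2(signal + 16), with Benjamini-Hochberg adjustment over all genes tested and a threshold of 0.05. The script was tested on simulated data. Precision is limited by the number of arrays (standard error of 0.13 for a typical gene's log2 difference, as a median). The members and lists were chosen with earlier results of these data known. Named genes were all members, with up to 3 per further list by smallest p; Lef1, Hoxc13, Mki67, Cxcr2, the other keratins of both clusters that passed and single genes used as checks were named outside that rule. Alternatives changed the offset, filter, scaling, choice of probe set, variance trend, array weights, replicate block and arrays. Promoters came from RefSeq (GRCm38.p6).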

Additional observations from a re-analysis of the deposited data

How the results depend on the processing

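Of 474 refits of single members, 469 kept direction and call, and the 5 that did not were those of Padi1 given above, where its difference lay between -1.04 and -0.64. The number of members lower in knock-in was 27 or 28 throughout, with 27 of 27 tested where Krt84 (stricter filter) or Krt82 (without probe sets that read several transcripts) dropped out, and 0 were higher. The median over all genes tested was 0.0054 with quantile normalization and -0.038 with the mean over probe sets, against -0.022. With each array left out in turn it lay between -0.032 and -0.012, the counts over all genes between 1121 and 1635 lower and between 1021 and 1608 higher, and the gap between sheath and shaft medians between 0.41 and 0.74.

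Wild-type and knock-in arrays share the numbers 1 to 3, and the sample titles give only group and number. Deviations of same-numbered arrays from their group means correlated at -0.25, -0.41 and -0.016, and those of differently numbered arrays between -0.0995 and 0.35. Deviations within a group cancel out, so these values depend on each other and cannot decide whether the samples were paired. With the replicate number as a block, 28 members were lower, and over all genes 1264 were lower and 1186 higher.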
